A study of Homo sapiens with 9 samples.

Results

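The 10 genes described here include those of the NF-κB transcription factor subunits NFKB1, NFKB2, REL, RELA and RELB, and of the feedback inhibitors NFKBIA and TNFAIP3. The others are BIRC3, the gene of a ubiquitin ligase, and the target genes SOD2 and ICAM1. The 10 were chosen by name, as genes of 1 pathway, with earlier results of these data known. All 10 were found among the 61541 gene identifiers of the count tables and all 10 passed the filter on low counts.

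NF-κB is a family of dimeric transcription factors that inhibitor proteins hold inactive in the cytoplasm until signals from cytokine receptors, pathogen sensors or cell stress activate the IκB kinases. Dimers that then enter the nucleus bind kB motifs in DNA and raise genes for cytokines, adhesion molecules and survival proteins. They also raise the genes of their own inhibitors, so that the response limits itself. In cholangiocytes, the epithelial cells that line the bile ducts, this pathway is known for its role in the inflammatory response to bacterial products and cytokines.

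Poly(A)-selected RNA was sequenced in 9 libraries of the H69 line, immortalized human cholangiocytes without a gene edit, so that every group comes from 1 line. In 3 libraries (Laminin511-E8) the cells had received the recombinant fragment laminin 511-E8, the integrin-binding end of the basement membrane protein laminin 511, at 0.25 µg/cm2. In another 3 (Acetazolamide) the medium held acetazolamide, which blocks carbonic anhydrases, at 10 µM, and in the last 3 (Ctrl) it held 10 µl DMSO as vehicle. All wells were seeded with 100000 cells, which grew for 48 h before a treatment of 48 h with a medium change after 24 h. Whether the wells with laminin 511-E8 also held DMSO was not stated. The submitters call the libraries of a group biological replicates, of which 3 of 4 per group were kept by RNA quality. No passage or day is named for them, and every SD and p-value below covers only the spread of these cultures, which may be technical.

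The total count per library ranged from 12529867 to 39518899. The genes of the mitochondrial genome took between 9.43% and 11.8% of the counts in 8 libraries and 16.2% in control library 2. Of 12 fixed cholangiocyte markers, KRT7 and KRT19 were abundant, at median levels of 1267 and 563 CPM (counts of the gene relative to all counts of its library), whereas SPP1 had 0 counts in all 9 libraries. The summed level of the 12 markers ranged from 2918 to 3341 CPM in laminin libraries, from 3441 to 4212 CPM in acetazolamide libraries and from 3378 to 4076 CPM in control libraries. The summed level of 9 hepatocyte markers ranged from 96.0 to 107 CPM, nearly all of it from APOB (72.3 to 82.4 CPM) and CPS1 (22.5 to 27.0 CPM), whereas albumin (ALB) had 1 count over the 9 libraries and APOA1 and TTR had 0. The summed level of 9 mesenchymal markers was 659 to 754 CPM in laminin libraries, 539.6 to 680.0 CPM in acetazolamide libraries and 574 to 623 CPM in control libraries. Most of it came from FN1 and VIM, and COL3A1 and LUM had 0 counts. The summed level of 10 leukocyte markers stayed between 4.23 and 9.70 CPM and that of 7 endothelial markers between 2.87 and 4.64 CPM. In RNA from whole wells, fewer cells of a type and less RNA per cell cannot be told apart.

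The libraries also differed in how the level of a gene moved with its GC content, and this touches most of the 10 genes, whose GC content ran from 34.8% (BIRC3) to 65.4% (RELB). Among all genes, those with a GC content of 40% lay 0.25 below their 9-library mean on the log2 scale in laminin library 2 and 0.38 below it in acetazolamide library 3. They lay 0.23 above it in acetazolamide library 2. The trend was smaller in the other 6 libraries, between -0.058 and 0.14 at this GC content. Each of the levels below is therefore given as scaled CPM (TMM scaling, which sets the libraries to a common composition) and, beside it, with this trend removed. The correction was chosen with earlier results of these data known.

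The stretches upstream of the genes are shown because NF-κB dimers act on genes through kB motifs. The kB consensus motif of 10 bases was searched on both strands, with overlapping matches kept, in windows of 300 bases around the RefSeq transcript starts (250 bases before the start, 50 after it; GRCh38.p14). A window was found for 9 of the 10 genes (not RELB). A match stood in a window of 6 of these 9 genes (66.7%), against 13.3% of all 27305 genes with a window. By windows, it stood in 7 of 16 (43.8%), against 11.3% of 35116. The windows of RELA, SOD2 and ICAM1 held no match, which says only that these letters are not in these windows. The matches are descriptions of sequence and were not measured as binding sites. The 250 bases before the start of NFKBIA lie on the minus strand at chr14:35404750-35404999, with the match in capitals:
NFKBIA: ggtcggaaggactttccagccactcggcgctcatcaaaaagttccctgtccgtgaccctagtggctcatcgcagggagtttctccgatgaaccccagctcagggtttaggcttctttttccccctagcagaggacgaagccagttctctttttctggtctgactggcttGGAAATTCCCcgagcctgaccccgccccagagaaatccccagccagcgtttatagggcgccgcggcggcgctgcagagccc

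For the other genes with a match, the motif is shown in capitals with 10 bases on each side, in the direction of the gene, which is the plus strand for all 5. The motif of NFKB1 lay at chr4:102501310-102501319, and the motif of NFKB2 nearest to a transcript start at chr10:102395684-102395693. REL held overlapping matches 1 base apart, at chr2:60881527-60881536 and, on the opposite strand, at chr2:60881528-60881537, and the match that starts first is in capitals. TNFAIP3 held matches at chr6:137867192-137867201 and chr6:137867204-137867213, and BIRC3 held matches at chr11:102317285-102317294 and chr11:102317349-102317358. The stretches came from RefSeq as well:
NFKB1: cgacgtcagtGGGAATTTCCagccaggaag
NFKB2: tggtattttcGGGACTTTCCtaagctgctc
REL: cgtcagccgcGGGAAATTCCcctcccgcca
TNFAIP3, first: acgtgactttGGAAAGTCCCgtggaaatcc
TNFAIP3, second: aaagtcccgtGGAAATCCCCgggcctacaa
BIRC3, first: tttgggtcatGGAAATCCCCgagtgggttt
BIRC3, second: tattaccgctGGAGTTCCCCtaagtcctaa

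Per exon length of the gene (all its annotated exons together), BIRC3 and NFKBIA were the most abundant of the 10 and REL was the least. This order depends on that length, which was largest for SOD2 (16493 bases) and REL (13170 bases). By scaled CPM, SOD2 averaged 564 and BIRC3 456 in laminin libraries, while BIRC3 led in the other groups. REL averaged 12.5, 11.3 and 13.6 scaled CPM in laminin, acetazolamide and control libraries, against 11.1, 11.3 and 10.4 for RELB. BIRC3 and the inhibitor gene NFKBIA averaged 186 ± 47.7 and 125 ± 13.4 TPM (counts per exon length, scaled to a common total; SD, n = 9 libraries), and the target gene SOD2 averaged 87.9 ± 18.6 TPM. BIRC3, NFKBIA and SOD2 stood at percentiles 95.8, 92.8 and 89.2 among 13381 genes. They were followed by RELA at 29.3 ± 5.81 TPM, NFKB1 at 25.5 ± 2.71, NFKB2 at 21.6 ± 3.70, TNFAIP3 at 18.2 ± 2.76, ICAM1 at 13.1 ± 2.60, RELB at 11.4 ± 3.27 and REL at 2.99 ± 0.592 TPM. REL stood at percentile 14.7, which may be too low if reads on exon bases that it shares with another gene were not counted. Over the 9 libraries, neighbours in this order differed by more than the SD of their difference, except RELA and NFKB1 (0.18 ± 0.24 on the log2 scale) and ICAM1 and RELB (0.22 ± 0.30).

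**Figure D1:**
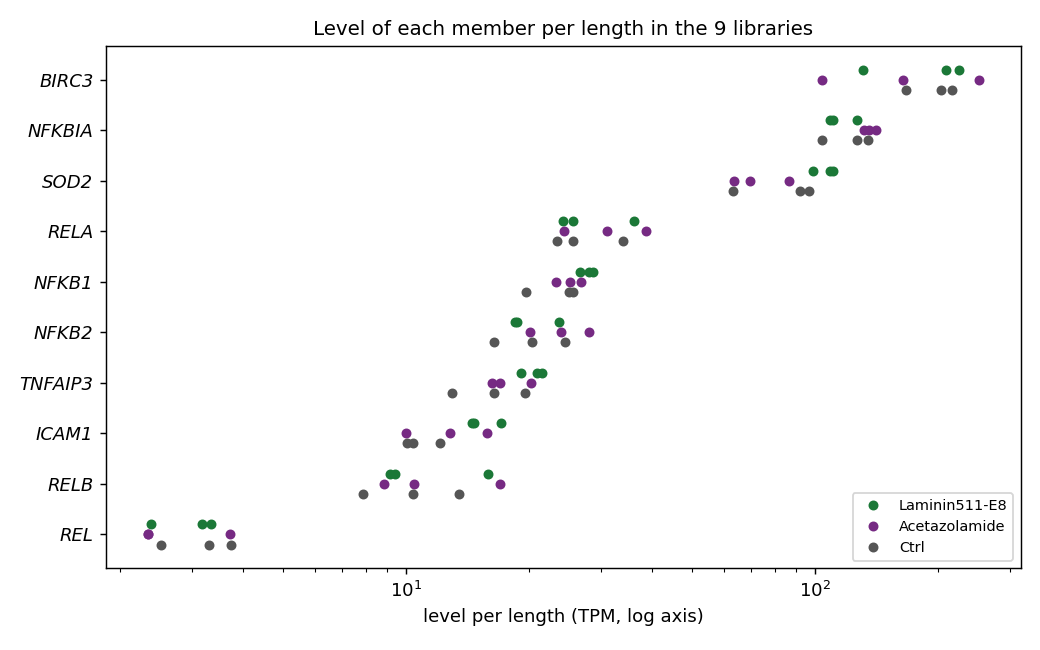
Level of each of the 10 genes per length (TPM, log axis) in the 3 Laminin511-E8, 3 Acetazolamide and 3 Ctrl libraries, with 1 point per library. BIRC3 and NFKBIA lie above 100 TPM in every library, RELA to RELB lie between 7.87 and 38.7 TPM, and REL lies between 2.34 and 3.75 TPM.

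The order of levels within a group was close to that over all libraries. In laminin libraries SOD2 averaged 106 ± 6.55 TPM and did not differ beyond the spread from NFKBIA at 115 ± 9.92 TPM (n = 3 libraries). In acetazolamide libraries SOD2 averaged 73.2 ± 12.0 TPM, below NFKBIA at 136 ± 4.47 TPM in all 3 libraries. In control libraries SOD2 averaged 84.1 ± 18.1 TPM and NFKBIA 122 ± 16.1 TPM, and NFKBIA was again higher in all 3. TNFAIP3 took a place above NFKB2 in laminin libraries (20.5 ± 1.21 against 20.3 ± 2.94 TPM, within the spread) and a place below it in the other groups.

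The first comparison asks which genes differed between cells given laminin 511-E8 and cells given the vehicle. ICAM1, SOD2, TNFAIP3 and NFKB1 had higher levels in all 3 laminin libraries than in any control library, by 1.16 to 1.39 times. The other 6 genes overlapped between the groups. None of the 10 passed edgeR's quasi-likelihood test after Benjamini-Hochberg adjustment over 15997 genes, and the background was also 0 genes called (0%), with 454 genes at an unadjusted p under 0.05. With DESeq2, 21 genes and 0 of the 10 passed, and with limma voom 0 and 0. After the GC trend was removed, 48 of 15737 genes (0.305%) and 0 of the 10 passed.

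These counts stand beside the same counts over all genes. All 3 laminin libraries were above all 3 control libraries for 4.69% of all genes and below them for 3.96%, against 4 and 0 of the 10. In the GC-corrected levels the same 4 genes and NFKBIA did not overlap, 4 above (background 6.91%) and 1 below (6.48%). At an unadjusted p under 0.05 and higher in laminin, 3 of the 10 stood against 1.34% of all genes, and 4 against 3.32% with the trend removed. The median log2 fold change of the 10 was 0.068, beside -0.0033 over all genes tested.

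**Figure D2:**
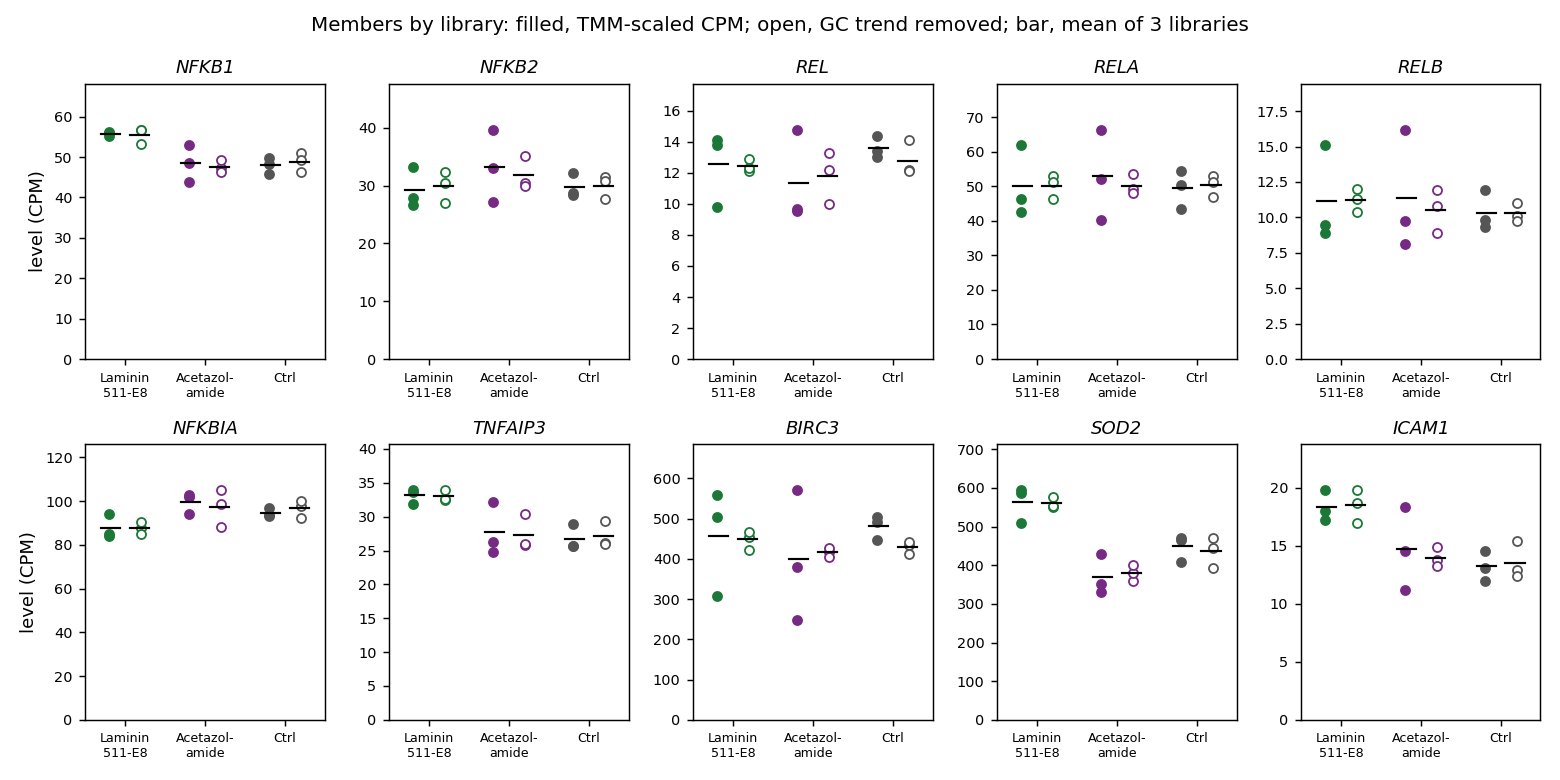
Level of each gene in every library, in the groups Laminin511-E8, Acetazolamide and Ctrl. Filled points are TMM-scaled CPM, open points are the same with the GC trend removed, bars are means of 3 libraries, and axes start at 0. The 3 laminin points of NFKB1, TNFAIP3, SOD2 and ICAM1 lie above all control points, and the open points of BIRC3 lie closer together than the filled ones.

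NFKB1, the gene of the p105 precursor and its p50 subunit, stood at 55.9, 56.2 and 55.3 CPM in the laminin libraries, against 49.7, 48.3 and 45.9 CPM in the control libraries. It stood at 48.4, 43.8 and 53.0 CPM in the acetazolamide libraries. The laminin libraries lay close together and above all 6 others. The log2 fold change of laminin over control was 0.22 ± 0.11 (SE; edgeR, adjusted p = 1.00), and 0.18 ± 0.064 with the trend removed (adjusted p = 0.475).

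RELA, the gene of the p65 subunit, which carries the main transactivation domain of the p50-p65 dimer, stood at 42.4, 61.9 and 46.2 CPM in the laminin libraries. It stood at 52.1, 40.1 and 66.4 CPM with acetazolamide and at 43.5, 50.3 and 54.3 CPM in controls. Laminin library 2 and acetazolamide library 3 were the highest and the groups overlapped. The group means with the trend removed were 50.1 ± 3.53, 50.2 ± 2.84 and 50.3 ± 3.14 CPM in laminin, acetazolamide and control libraries (SD, n = 3 each). The log2 fold change over control was then -0.0048 for laminin (95% interval -0.18 to 0.17) and -0.00010 for acetazolamide (-0.17 to 0.17).

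The subunit genes of the alternative pathway, NFKB2 (the p100 precursor of p52) and RELB, its main partner, showed the same 2 high libraries. RELB stood at 8.87, 15.1 and 9.43 CPM in laminin libraries, at 9.77, 8.09 and 16.2 CPM in acetazolamide libraries and at 9.78, 9.35 and 11.9 CPM in control libraries. NFKB2 ranged from 26.6 to 33.3 CPM, from 27.1 to 39.7 CPM and from 28.4 to 32.1 CPM in the same groups. All groups overlapped for both genes. After correction, laminin over control was 0.13 ± 0.12 for RELB and -0.0040 ± 0.092 for NFKB2 (log2 ± SE; edgeR, adjusted p = 0.889 and 0.998).

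REL, the gene of c-Rel, a subunit best known from lymphocytes, ran the other way across libraries, as did BIRC3. REL stood at 14.1, 9.80 and 13.8 CPM with laminin, at 9.52, 14.8 and 9.67 CPM with acetazolamide and at 13.4, 13.0 and 14.4 CPM in controls. Laminin library 2 and acetazolamide libraries 1 and 3 were low, and both treated groups spread further than the controls. With the trend removed, laminin over control was -0.043 (95% interval -0.29 to 0.21) and acetazolamide over control -0.12 (-0.37 to 0.14). REL shares 43.3% of its exon bases with a noncoding gene on the same strand (AC010733.2), which had 0 counts in all libraries. How reads on these shared bases were counted was not stated, so reads of REL may be missing from its counts.

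Of TNFAIP3, NFKBIA and BIRC3, the laminin libraries stood above all controls for TNFAIP3 alone. TNFAIP3, the gene of A20, a ubiquitin-editing enzyme that shuts the pathway down upstream of the IκB kinases, stood at 33.6, 33.9 and 31.9 CPM in the laminin libraries. It stood at 26.3, 24.8 and 32.2 CPM with acetazolamide and at 25.6, 25.6 and 28.9 CPM in controls. The laminin libraries were above all controls, while acetazolamide library 3 reached into the laminin range. Laminin over control was 0.31 ± 0.13 on the log2 scale (edgeR, adjusted p = 1.00) and 0.28 ± 0.085 with the trend removed (adjusted p = 0.350).

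NFKBIA, the gene of IκBα, which binds NF-κB dimers and returns them to the cytoplasm, stood at 84.1, 94.1 and 85.2 CPM in the laminin libraries, against 93.4, 96.7 and 93.5 CPM in the control libraries. It stood at 103, 94.1 and 102 CPM with acetazolamide. Laminin libraries 1 and 3 were the lowest of all 9 and laminin library 2 lay inside the control range. Laminin over control was -0.11 ± 0.10 (log2 ± SE; edgeR, adjusted p = 1.00). The corrected value was -0.14 ± 0.074 (adjusted p = 0.722), with all 3 laminin libraries (84.9 to 90.7 CPM) below all controls (92.4 to 100.2 CPM).

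BIRC3, the gene of cIAP2, a ubiquitin ligase of the TNF receptor complex and an inhibitor of cell death, had the widest spread of the 10. It stood at 503, 308 and 558 CPM in laminin libraries, at 379.7, 570.2 and 247 CPM in acetazolamide libraries and at 504, 492 and 446 CPM in control libraries. Laminin library 2 and acetazolamide library 3 were low. Corrected group means were 448 ± 23.3, 416 ± 12.1 and 429 ± 15.2 CPM (SD, n = 3 each), and laminin over control was 0.061 (log2, 95% interval -0.070 to 0.19; edgeR, adjusted p = 0.908). The same value without the correction was -0.074.

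The removal of the trend narrowed the spread within groups for 9 of the 10 genes. The within-group SD (log2) of BIRC3 was 0.058 with the trend removed and 0.44 without the correction. For RELA these values were 0.092 and 0.28, and for RELB 0.15 and 0.40. The median over 9117 genes with a mean of at least 10 CPM was 0.11 with the trend removed and 0.21 without. NFKBIA was the exception, at 0.087 with the trend removed and 0.067 without.

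The target genes had the largest differences between laminin and control among the 10. SOD2, the gene of the mitochondrial superoxide dismutase, stood at 586, 510.2 and 594 CPM in the laminin libraries, against 471, 409 and 466 CPM in the control libraries. All laminin libraries were above all controls, with laminin library 2 the nearest to them. Laminin over control was 0.33 ± 0.12 on the log2 scale (1.26 times; edgeR, adjusted p = 1.00). The corrected value was 0.36 ± 0.071 (1.28 times, adjusted p = 0.0711).

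ICAM1, the gene of an adhesion molecule that binds leukocyte integrins, stood at 17.2, 19.8 and 18.0 CPM in the laminin libraries and at 12.0, 14.6 and 13.1 CPM in the control libraries. With acetazolamide it stood at 14.6, 11.2 and 18.4 CPM. The laminin libraries were above all controls, and acetazolamide library 3 lay among the laminin libraries. Laminin over control was 0.47 ± 0.18 on the log2 scale (1.39 times; edgeR, adjusted p = 1.00) and 0.45 ± 0.11 with the trend removed (1.36 times, adjusted p = 0.157). ICAM1 shares 22.0% of its exon bases with the opposite-strand gene AC011511.5, which had 54 counts over the 9 libraries, against 3309 for ICAM1. SOD2 shares 1.8% of its exon bases with WTAP on the opposite strand. The strand setting of the counting was not stated.

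The second comparison asks the same of acetazolamide, against the control libraries that the first comparison also used. Every one of the 10 genes overlapped between acetazolamide and control libraries. With edgeR 0 of 15997 genes (0%) and 0 of the 10 passed in acetazolamide against control, with 292 genes at an unadjusted p under 0.05. DESeq2 called 7 genes and limma voom 0, none of them among the 10, and 0 of 15737 genes (0%) passed with the trend removed. No overlap between the groups was found for 3.21% of all genes above and 2.10% below the controls, against 0 and 0 of the 10. The same held in the corrected levels, with a background of 4.37% above and 4.38% below. The log2 fold changes of the 10 ran from -0.28 to 0.16, with a median of 0.066 (0.0049 over all genes).

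SOD2 had the lowest of these values. It stood at 351, 429.6 and 329.9 CPM in acetazolamide libraries, against the 409 to 471 CPM of the controls, so that acetazolamide libraries 1 and 3 lay below every control and library 2 did not. Acetazolamide over control was -0.28 ± 0.12 (log2 ± SE; edgeR, adjusted p = 1.00) and -0.20 ± 0.071 with the trend removed (adjusted p = 0.964). For NFKBIA the difference was 0.075 ± 0.10, and with the trend removed 0.012 (95% interval -0.15 to 0.17).

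**Figure D3:**
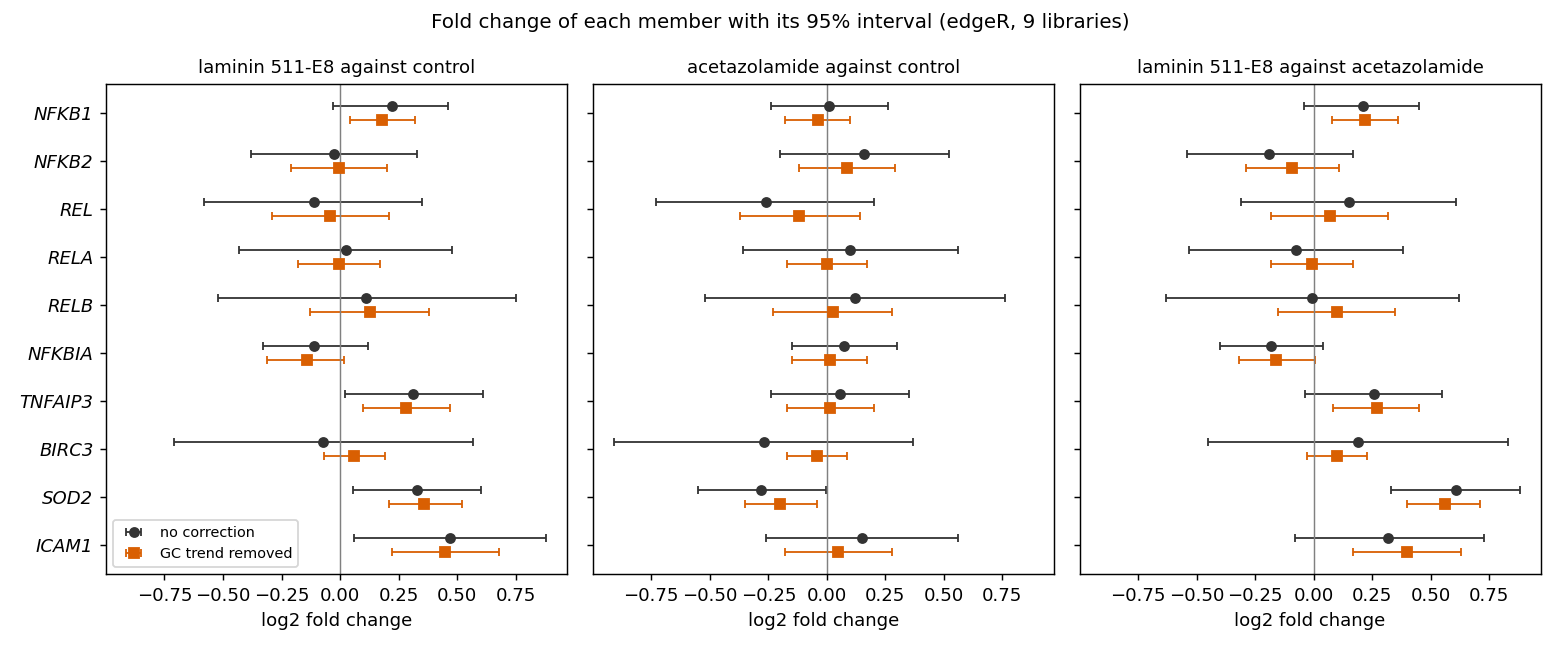
Log2 fold change of each of the 10 genes with its 95% interval from edgeR, for laminin 511-E8 against control, acetazolamide against control and laminin 511-E8 against acetazolamide. Circles are without correction, squares with the GC trend removed. SOD2 has 0.33, -0.28 and 0.61 in the 3 panels without correction, and the interval of BIRC3 for laminin against control is -0.71 to 0.57 without correction and -0.070 to 0.19 with it.

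Laminin 511-E8 and acetazolamide were also compared with each other, a comparison that shares its libraries with both of those above. SOD2 had the largest difference of the 10. Its 510.2 to 594 CPM in laminin libraries lay above its 329.9 to 429.6 CPM in acetazolamide libraries, with a log2 fold change of 0.61 ± 0.12 (1.52 times; edgeR, adjusted p = 0.783). After correction SOD2 was higher in laminin libraries, at 560.5 ± 14.1 CPM, against 380.1 ± 19.8 CPM in acetazolamide libraries (SD, n = 3 each), a log2 fold change of 0.56 ± 0.071 (1.47 times; edgeR, adjusted p = 0.0110). This made it 1 of 10 that passed, against 30 of 15737 genes (0.191%), and it ranked at place 8 by p. Without the correction 0 of the 10 and 0 of 15997 genes (0%) passed, with 374 at an unadjusted p under 0.05. DESeq2 called 19 genes, SOD2 among them (0.61, adjusted p = 0.0271), and limma voom 0.

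The call of SOD2 was lost when any of several single libraries was left out. With the trend removed its adjusted p was 0.0870, 0.0614 and 0.0616 without laminin library 1, 2 or 3 and 0.0786 without acetazolamide library 1, while its log2 fold change stayed between 0.53 and 0.59 over all 9 omissions. Without laminin library 2 and acetazolamide library 3 together it was 0.56 (adjusted p = 0.0821). The biliary keratin gene KRT19 moved the other way beside it, at 456, 445 and 469 CPM in laminin libraries, against 626, 629 and 663 CPM in acetazolamide libraries and 604, 669 and 589.6 CPM in control libraries with the trend removed. Its log2 fold change was -0.49 in laminin against acetazolamide (adjusted p = 0.0110) and -0.44 in laminin against control (adjusted p = 0.0153). Both calls too were lost without laminin library 1, 2 or 3 (adjusted p from 0.0614 to 0.114) or acetazolamide library 1 (0.0735 and 0.0515), and that against control also without control library 1 (0.0804). All 9 tested cholangiocyte markers had a log2 fold change below 0 in laminin against control. Of the 5 tested mesenchymal markers 0 passed, and 2 had a log2 fold change above 0 in laminin against control. VIM, the gene of the intermediate filament protein vimentin, stood at 266, 252 and 297 CPM in laminin libraries, against 229.6, 217 and 221 CPM in acetazolamide libraries and 221, 229 and 231 CPM in control libraries with the trend removed. All laminin libraries lay above the others, with a log2 fold change of 0.28 over acetazolamide and 0.26 over control (edgeR, adjusted p = 0.199 and 0.239). Other abundant markers differed less clearly. KRT7, FN1 and COL1A1 overlapped between laminin and control, at -0.077, 0.18 and -0.050 (edgeR, adjusted p = 0.890, 0.924 and 0.953). CD24 lay below all controls, at -0.45 (adjusted p = 0.593). The part of these markers in the result on SOD2 was not tested.

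The other genes showed smaller differences between laminin and acetazolamide. Besides SOD2, NFKB1 lay above in all 3 laminin libraries (background 3.01%) and NFKBIA lay below in all 3 (background 3.11%), though laminin and acetazolamide libraries 2 both round to 94.1 CPM. In the corrected levels NFKB1, TNFAIP3, SOD2 and ICAM1 lay above (background 6.07%) and none below (5.75%). ICAM1 then had a log2 fold change of 0.40 ± 0.10 (edgeR, adjusted p = 0.277), TNFAIP3 one of 0.27 ± 0.084 (adjusted p = 0.542) and NFKB1 one of 0.22 ± 0.064 (adjusted p = 0.414). NFKBIA had -0.16 ± 0.074 (adjusted p = 0.921). At an unadjusted p under 0.05 and higher in laminin stood 1 of the 10 (background 0.975%), and 4 in the corrected fit (background 2.37%).

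Ratios of counts within a library need no scaling, and a ratio between genes of close GC content cancels part of the trend. In acetazolamide library 3, for example, the trend was 0.084 for TNFAIP3 and 0.21 for NFKBIA, so their ratio keeps some of it. All 8 pairs of the 10 genes with GC contents within 4 points were taken, a measure that was chosen after the data had been seen. In 5 of the 8 pairs the laminin and control libraries did not overlap, against 15.5% of 9116 pairs of genes that neighbour each other in GC content. In 5 of 8 the laminin and acetazolamide libraries did not overlap (background 12.7%), and in 0 of 8 the acetazolamide and control libraries (background 8.01%). The pairs share genes and are not independent. Their GC contents lie up to 3.95 points apart, unlike those of the neighbours in the background, so the shares are not strictly alike.

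TNFAIP3 had 0.400, 0.360 and 0.375 counts per count of NFKBIA in laminin libraries, 0.256, 0.263 and 0.317 in acetazolamide libraries and 0.274, 0.265 and 0.309 in control libraries. The balance of the A20 gene to the IκBα gene was thus higher in each laminin library than in all 6 others, by 1.34 times over control. For NFKBIA over NFKB1 the ratio was 1.50, 1.68 and 1.54 with laminin, 2.12, 2.15 and 1.92 with acetazolamide and 1.88, 2.00 and 2.04 in controls. Here each laminin library was lower than all others, at 0.797 times the control.

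ICAM1 over RELA, whose GC contents differ by 0.227 points, had ratios of 0.405, 0.320 and 0.389 with laminin, 0.280, 0.278 and 0.277 with acetazolamide and 0.275, 0.291 and 0.241 in controls. SOD2 over REL had 41.7, 52.1 and 43.1 with laminin, 36.9, 29.1 and 34.1 with acetazolamide and 35.0, 31.4 and 32.3 in controls. Both were higher in every laminin library than in all others, by 1.38 times over control, and so was ICAM1 over NFKBIA (1.49 times). Each of these laminin comparisons had p = 0.100 in the exact two-sided permutation test, the smallest that 3 against 3 libraries allow, and 0.240 after Benjamini-Hochberg adjustment over 24 tests. TNFAIP3 over NFKB1, BIRC3 over REL and NFKB2 over RELB overlapped between all groups.

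**Figure D4:**
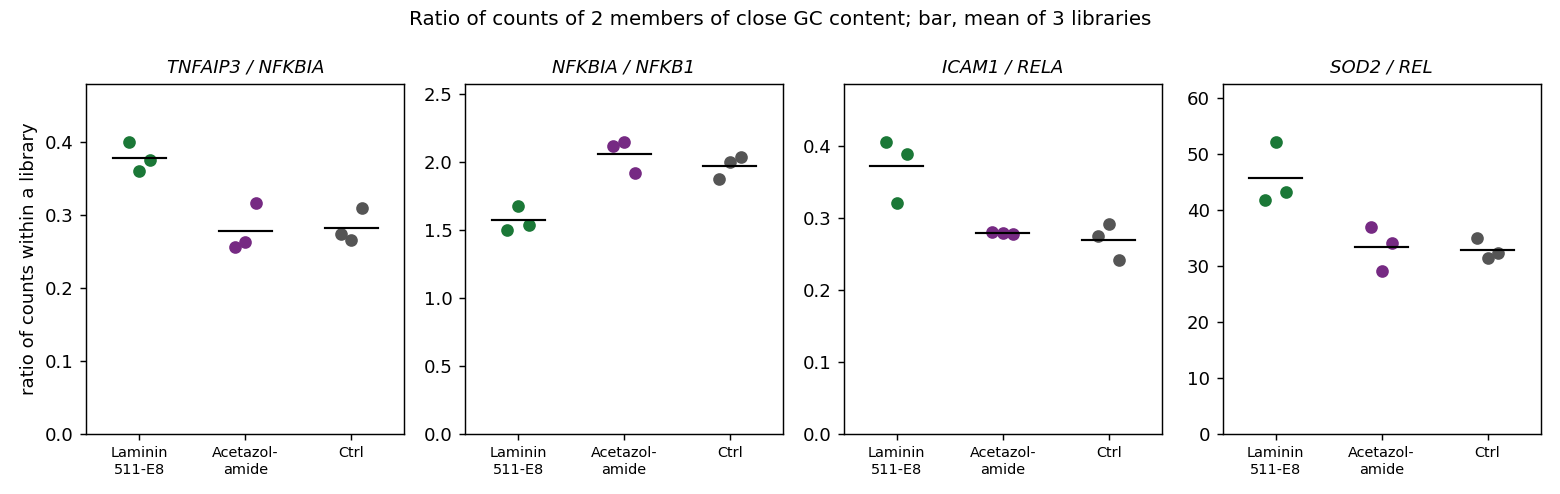
Ratio of the counts of 2 genes of close GC content within each library, for TNFAIP3 over NFKBIA, NFKBIA over NFKB1, ICAM1 over RELA and SOD2 over REL, in the groups Laminin511-E8, Acetazolamide and Ctrl (points, libraries; bars, means of 3; axes start at 0). The laminin libraries lie above all others in 3 panels and below them for NFKBIA over NFKB1.

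The rest of the pathway was described from lists that were fixed with earlier results of these data known. Of 20 ligands and receptors, 17 were tested, and TNFRSF1A, IL1R1 and LTBR were the most abundant. Of 25 kinases and adaptors, 24 were tested, led by TAB2, BIRC2 and MAP3K7, and of 17 other inhibitors 15 were tested, led by TAX1BP1, ITCH and TNIP1. In edgeR none of these 3 lists had a gene past the adjusted threshold in any of the 3 comparisons, with or without the correction. At an unadjusted p under 0.05 in laminin against control without the correction stood 0, 0 and 1 of their genes, against 454 of all 15997 genes. Their median log2 fold changes in laminin against control were 0.013, 0.024 and 0.0066.

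Of 36 other target genes, also listed with earlier results known, 22 were tested, with CFLAR, C3 and BCL2L1 the most abundant. In laminin against control 3 rose and 0 fell with the trend removed, namely CXCL2, a neutrophil chemokine, CSF3, the granulocyte growth factor, and the cytokine IL6. Of all 15737 genes, 15 rose and 33 fell past the threshold in this fit (0.305% for both directions together). The median of the 22 was 0.12 without the correction, beside -0.0033 over all genes. DESeq2 called the same 3 without the correction. In edgeR 0 of the 22 then passed, and 6 higher (background 1.34%) and 1 lower stood at an unadjusted p under 0.05. In both directions together, 454 of all 15997 genes stood there. In acetazolamide against control and in laminin against acetazolamide 0 of the 22 passed in either fit.

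CXCL2 stood at 9.39, 7.28 and 9.17 CPM in laminin libraries, at 4.76, 7.04 and 5.28 CPM in acetazolamide libraries and at 2.77, 2.56 and 3.68 CPM in control libraries. CSF3 stood at 6.63, 7.47 and 5.95 CPM, at 7.08, 4.90 and 8.50 CPM and at 2.80, 2.61 and 3.68 CPM in the same groups. Both treated groups lay above all controls for both genes, and for CXCL2 the laminin libraries also lay above the acetazolamide libraries. With the trend removed, laminin over control was 1.53 for CXCL2 and 1.15 for CSF3 (log2; edgeR, adjusted p = 0.00758 and 0.00606). Acetazolamide over control was 0.94 for CXCL2 (adjusted p = 0.669) and 1.08 for CSF3 (adjusted p = 0.0569).

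IL6 rested on 11 to 105 counts per library. It stood at 2.48, 2.89 and 2.75 CPM in laminin libraries, at 1.04, 1.70 and 1.11 CPM in acetazolamide libraries and at 0.791, 0.639 and 1.02 CPM in control libraries. Laminin libraries lay above all others and acetazolamide libraries above the controls. The log2 fold change of laminin over control was 1.76 in both fits, with an adjusted p of 0.0148 with the trend removed and 0.199 without the correction (edgeR). Acetazolamide over control was 0.70 with the trend removed (adjusted p = 0.964). With the trend removed, the log2 fold changes of laminin over control stayed between 1.09 and 1.21 for CSF3, between 1.44 and 1.69 for CXCL2 and between 1.65 and 1.91 for IL6 when any 1 library was left out, but each call was lost without some libraries. For CSF3 this was laminin library 1 alone (adjusted p = 0.0616). For CXCL2 it was laminin library 1 or 3 or control library 1 (0.0647, 0.0512 and 0.0804). For IL6 it was any laminin library or control library 1 or 2 (0.0584 to 0.141), and laminin library 2 together with acetazolamide library 3 (0.0566). The CSF3 difference between acetazolamide and control passed without acetazolamide library 2 (adjusted p = 0.0393) and, with no correction, in DESeq2 (adjusted p = 0.0134).

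NFKBIA was the gene whose closest company was listed by a fixed measure, the Pearson correlation of log2 levels over the 9 libraries among 9126 genes. The 5 genes most like it were AMPH (0.95), IRX3 (0.94), MCCC1 (0.93), SCNN1G (0.93) and USP2 (0.91). The points share libraries, depth and GC trend, and the values are a description with no test.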

How the data were processed

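H69 cholangiocytes were measured by RNA sequencing (3 Laminin511-E8, 3 Acetazolamide and 3 Ctrl libraries). Raw counts per gene were deposited. The submitters' processing notes name GRCh38, HTSeq 0.11.0, HISAT2 2.2.1, Trimmomatic 0.39 and FastQC 0.11.9. Not given in the sources used here are the annotation release, the strand setting and how reads matching several genes were counted. Of 61541 identifiers, 61369 were named from a name table and 159 (SOD2 among them) from GENCODE 29, and 58312 had a GC content. Entries that name no gene numbered 0, and so did columns left unmatched to a sample.

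Differences were tested in R 4.3.3 by edgeR 4.0.16 (TMM, the filterByExpr filter, and 1 robust quasi-likelihood fit over the 9 libraries that used bias-adjusted deviances), with Benjamini-Hochberg adjustment over all genes tested and a threshold of 0.05. GC-corrected values came from the same test with a per-library trend of log2 levels with GC content (local regression, span 0.3) as an offset. Alternatives were DESeq2 1.42.0, limma 3.58.1 (voom), other scalings, filters on low counts, the replicate number as a block and fits without each library. Fits without each library under GC correction, fits without laminin library 2 and acetazolamide library 3, the legacy quasi-likelihood fit and the ratios of counts were chosen after the data had been seen. CPM is a gene's share of the library, TPM divides by exon length (GENCODE 29), and log2 levels used a prior count of 0.5. Python 3.11.15, pandas 2.3.3, SciPy 1.17.1 and matplotlib 3.10.9 were used for tables and plots.

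All 10 genes are named in each comparison. Genes of the pathway lists are named where they passed with or without GC correction (up to 4 per list) or were among the 3 most abundant. The members and lists were chosen with earlier results of these data known. At the depth of these libraries 3 counts, the limit that a count of 0 allows, correspond to 0.0759 to 0.239 CPM, which covers counting error only. The tests were checked on simulated counts. For laminin against control with a GC trend (15719 genes uncorrected, 15481 corrected), recovery of log2 changes of 0.5, 1 and 2 was 0.0%, 17.9% and 72.3% without correction and 1.54%, 50.0% and 85.5% with it. Of the unchanged genes, 0 were called without correction and 3 with it. These counts were 3 and 6 for laminin against acetazolamide, and 1 and 6 for acetazolamide against control. With correction, a change of 0.5 was recovered in 1.64% and 1.49% of cases in these 2 comparisons. The simulated spread came from the uncorrected counts, which already held the GC trend, and the trend was then added again. Recovery in these data may therefore differ. The level of 1 marker gene is not reported here.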

Additional observations from a re-analysis of the deposited data

Results flagged for a closer look

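With the GC trend removed, SOD2 differed between the treated groups, by a log2 difference of 0.56 in laminin 511-E8 against acetazolamide. Against the same control libraries its log2 fold change was 0.36 with laminin (edgeR, adjusted p = 0.0711) and -0.20 with acetazolamide (adjusted p = 0.964). The test of the difference between the treated groups had an adjusted p of 0.0110 (edgeR), and of 0.783 without the correction. With the correction this adjusted p was 0.0991 when the replicate block was added, and up to 0.0870 when a single library was left out.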

How the results depend on the processing

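Among the log2 fold changes of the 10 genes and of the named list genes, 446 of the values under other settings kept direction and side of the threshold, 27 changed sign, 11 passed newly and 10 no longer passed. With single libraries left out these counts were 612, 49, 1 and 22. No value that changed sign was larger than 0.19 in the original fit, and none had an adjusted p under 0.908. The causes of the changes below were not tested.

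By other tools, edgeR's 0 genes became 21, 7 and 19 with DESeq2 (laminin and acetazolamide against control, laminin against acetazolamide), and 48 and 30 in the comparisons with laminin after GC correction, with 1 of the 10 genes in laminin against acetazolamide by either. By CPM in place of TPM, 3, 8 and 5 of the 10 genes kept their place in the order of levels in laminin, acetazolamide and control libraries.

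Without laminin library 2 and acetazolamide library 3, signs turned in laminin against control for REL (0.028), RELA (-0.16), RELB (-0.16) and BIRC3 (0.14), in acetazolamide against control for NFKB1 (-0.046), RELA (-0.080), RELB (-0.18), TNFAIP3 (-0.046) and ICAM1 (-0.014), and in laminin against acetazolamide for RELB (0.015). With GC correction they turned for RELA (-0.0048) and BIRC3 (0.061), for NFKB1 (-0.036) and RELA (-0.00010), and for RELB (0.10) in these comparisons. With no filter on low counts NFKB1 had -0.027 in acetazolamide against control and RELB 0.013 in laminin against acetazolamide, where limma voom gave 0.018.

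Correlations of uncorrected deviations from the group means ran from -0.61 to 0.21 for the same replicate number and from -0.36 to 0.62 for other numbers. These deviations also hold the GC trend of each library, so they cannot show whether the numbers mark a shared passage or day. The replicate block gave 0 genes in all comparisons without correction, with 281, 200 and 239 genes at an unadjusted p under 0.05, and a log2 fold change of 0.0016 for RELB in laminin against acetazolamide. With the block and GC correction together RELA had -0.0062 and BIRC3 0.061 in laminin against control, NFKB1 -0.036 and RELA 0.0022 in acetazolamide against control and RELB 0.10 in laminin against acetazolamide, and the 48 and 30 genes became 0 and 0 (933 and 680 at an unadjusted p under 0.05), with 0 of the 10. SOD2 then had an adjusted p of 0.0991.

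With GC correction and without laminin library 2 and acetazolamide library 3, 27 and 0 genes and 0 of the 10 passed in the comparisons with laminin, and NFKB2 had 0.060 in laminin against control, RELB -0.074 and TNFAIP3 -0.058 in acetazolamide against control. Leaving out each library in turn gave 0 to 61, 0 to 3 and 0 to 31 genes in the 3 corrected comparisons and 0 to 1 of the 10 in the last, and kept 6 to 10, 6 to 10 and 8 to 10 places in the order of levels in laminin, acetazolamide and control libraries.

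The uncorrected log2 fold changes that changed sign on leaving out a library ranged, in laminin against control, from -0.13 to 0.021 for NFKB2, -0.22 to 0.028 for REL, -0.16 to 0.11 for RELA, -0.17 to 0.24 for RELB and -0.24 to 0.14 for BIRC3. In acetazolamide against control they ranged from -0.047 to 0.081 for NFKB1, -0.082 to 0.27 for RELA, -0.18 to 0.31 for RELB, -0.048 to 0.13 for TNFAIP3 and -0.017 to 0.31 for ICAM1. In laminin against acetazolamide they ranged from -0.26 to 0.11 for RELA, -0.29 to 0.30 for RELB and -0.067 to 0.53 for BIRC3. With GC correction the ranges were -0.056 to 0.060 for NFKB2, -0.088 to 0.030 for REL and -0.065 to 0.045 for RELA in the first comparison, -0.061 to 0.043 for RELA, -0.071 to 0.13 for RELB, -0.045 to 0.084 for NFKBIA, -0.059 to 0.071 for TNFAIP3 and -0.0081 to 0.15 for ICAM1 in the second, and -0.032 to 0.15 for REL, -0.051 to 0.046 for RELA and -0.0019 to 0.20 for RELB in the third.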
